A study of Mus musculus with 2 samples.

Results

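Notch1, Notch2, Notch3 and Notch4, the 4 Notch receptor genes of the mouse, were picked out by Entrez Gene number from the 27179 genes of the count table. The cells were ALL65, a single primary leukaemia of mouse T cells (T cell acute lymphoblastic leukaemia, T-ALL), so all results come from 1 tumour. It carries Vav-tTA and TRE-GFP-shIkaros. The Vav promoter, active in blood cells, drives a tetracycline transactivator, which switches on a green fluorescent protein (GFP) linked to a short hairpin RNA against Ikaros. Doxycycline (Dox) shuts the hairpin off, and the Ikaros of the cells returns. RNA from GFP-mid cells of the spleens of leukaemic recipients given Dox for 3 days was set against RNA from GFP-high cells of untreated leukaemic recipients. Both groups carry the same transgenes, and Dox and the GFP gate of the sort cannot be told apart as sources of a difference. The ages of the recipients were not stated. Each group has 1 library, so no value has a replicate error, and no test of the treatment was run. Every interval is an exact 95% counting interval that holds no spread between mice.

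Notch receptors are surface proteins that a ligand on a neighbouring cell activates. After ligand binding, an Adam protease and then the gamma-secretase complex cut the receptor, and its freed intracellular part enters the nucleus, joins the DNA-binding protein RBPJ and switches on target genes. Notch1 directs blood progenitors to the T cell fate, and its activation is a common driver of T-ALL in mice and humans. Notch3 is made in immature thymocytes and in vascular smooth muscle, and its gene is itself switched on by Notch signals. Notch2 is best known in the blood system for marginal zone B cells, and Notch4 is mainly a receptor of endothelial cells. Ikaros is known to bind sites that share a core with RBPJ sites, and mouse T-ALL that lacks Ikaros often carries activated Notch1.

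The promoters of the 3 receptors whose transcripts were abundant are shown because Notch1 and Notch3 stood lower with Dox and Notch2 did not. Each line gives the 250 bases before the annotated start, read 5′ to 3′ on the strand of the gene, from RefSeq on GRCm38.p6, the assembly behind mm10. Capitals mark GGGCGG, a GC box, and GGGAA, the short core of Ikaros sites, each on either strand.
Notch1, chr2:26503823-26504072, minus strand: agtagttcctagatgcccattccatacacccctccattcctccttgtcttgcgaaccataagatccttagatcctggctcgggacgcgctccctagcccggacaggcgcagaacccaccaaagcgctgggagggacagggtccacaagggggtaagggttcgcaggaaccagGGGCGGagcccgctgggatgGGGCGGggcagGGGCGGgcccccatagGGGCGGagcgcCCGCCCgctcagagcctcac
Notch2, chr3:98013288-98013537, plus strand: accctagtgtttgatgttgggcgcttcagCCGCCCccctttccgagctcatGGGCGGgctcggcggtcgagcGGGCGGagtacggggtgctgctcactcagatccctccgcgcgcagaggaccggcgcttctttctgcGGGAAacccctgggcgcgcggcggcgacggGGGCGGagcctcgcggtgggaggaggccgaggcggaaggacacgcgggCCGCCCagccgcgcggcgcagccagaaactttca
Notch3, chr17:32166891-32167140, minus strand: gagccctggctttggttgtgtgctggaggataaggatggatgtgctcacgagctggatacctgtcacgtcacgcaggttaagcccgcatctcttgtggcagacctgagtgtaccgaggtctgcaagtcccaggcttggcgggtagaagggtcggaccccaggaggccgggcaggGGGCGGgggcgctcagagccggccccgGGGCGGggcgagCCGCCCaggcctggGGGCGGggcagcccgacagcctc

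The window searched ran from 250 bases before to 50 bases after each start, on both strands, and all 4 receptors matched an entry. TGGGAA, the longer core that RBPJ and Ikaros sites share and that contains GGGAA, was in none of the 4 receptor windows, and 25.6% of all 32851 windows of this length hold it. GGGAA was found once each in the Notch2 and Notch4 windows and not in those of Notch1 and Notch3, against 62.7% of all windows. The GC box was found 5 times for Notch1, 7 times for Notch2 and 4 times for Notch3, and 0 times for Notch4. At least 3 such matches are held by 10.7% of all windows. The windows of Notch1, Notch2 and Notch3 were rich in G and C, at 68.3%, 73% and 70%, against a median of 52.7% over all windows and 58.3% for Notch4. These are letter matches around a single annotated start. Notch1 transcripts of T-ALL can also begin at internal starts, and counts per gene do not separate those from full-length transcripts.

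The Dox library held 14457475 counts and the untreated library 7477988. Ikzf1, the gene the hairpin targets, stood at 1455 CPM with Dox and 262 CPM without, where CPM is counts per 1000000 of the scaled library. Of 14 T lineage markers, 13 had at least 5 CPM, and the exception was Ptcra, the pre-T cell receptor alpha chain, with 0 Dox counts and 3 untreated counts. Genes of that list that mark T cell stages also differed in level. Rag1, a recombinase gene, had a log2 ratio of -1.54 (-1.72 to -1.37), and the co-receptor genes Cd8b1, Cd4 and Cd8a had 1.27 (1.18 to 1.36), 0.83 (0.67 to 0.99) and 0.80 (0.75 to 0.85). Their part in the receptor differences was not tested. Markers of other cell types were summed over each list. The 10 B cell markers summed to 0.914 CPM with Dox and 0.526 CPM without, and the 11 myeloid markers to 23.5 CPM with Dox and 19.9 CPM without. The 7 dendritic cell markers summed to 2.04 CPM with Dox and 0.526 CPM without, and the 6 NK cell markers to 5.55 CPM with Dox and 1.97 CPM without. Erythroid and platelet lists stayed under 4 CPM in both libraries. The endothelial list summed to 237 CPM with Dox and 197 CPM without through Pecam1 and Eng, which blood cells also make, while Cdh5, Kdr and Emcn had no count. The stromal list summed to 125 CPM with Dox and 203 CPM without, most of it Col1a2, while Col3a1, Dcn and Lum had no count.

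Notch1 (Entrez Gene 18128, chromosome 2 from 26457902 to 26503822 in mm10, minus strand, 34 exons in its longest coding transcript) was the most abundant receptor in both libraries. It had 3711 counts in the Dox library and 5996 counts in the untreated library, although the Dox library was sequenced more deeply. Its level was 261 CPM (253 to 269) with Dox and 789 CPM (769 to 809) without, and these counting intervals lie far apart. The log2 ratio of Dox over untreated was -1.60 (-1.66 to -1.54), a 3.02-fold lower level. In the untreated library Notch1 ranked 96 by CPM among the 10113 genes that reached 5 CPM in either library, and with Dox it ranked 746. Per kilobase of the exonic length listed for each gene, its level was 27.5 CPM with Dox and 83.1 CPM without, at rank 3525 with Dox and 958 without. Measured as a difference in CPM, Dox minus untreated, Notch1 stood at -528 CPM, and 2 of the 10113 genes had a larger difference in that direction. That measure grows with transcript length. Per kilobase the difference was -55.7 CPM, at rank 43. In bulk RNA, fewer cells that make a transcript and less of it per cell cannot be told apart.

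Notch3 (Entrez Gene 18131, chromosome 17 from 32120820 to 32166896, minus strand, 33 exons) had the lowest ratio of the 4. It had 455 Dox counts and 934 untreated counts, or 32.0 CPM (29.1 to 35.1) with Dox and 123 CPM (115 to 131) without. The log2 ratio was -1.94 (-2.11 to -1.78), a 3.83-fold lower level. By CPM it ranked 6338 with Dox and 2067 without. Of the 10113 genes, 227 (2.24%) stood at least 2-fold lower with Dox and 223 (2.21%) at least 2-fold higher, and counted from the lowest ratio Notch3 came at rank 59 and Notch1 at rank 99. For both genes the whole counting interval lay past 2-fold lower, which held for 141 of the 10113 genes (1.39%). Cells of the vessel wall also make Notch3, and their marker Pdgfrb stood lower too, at 10.5 CPM with Dox and 35.3 CPM without, a log2 ratio of -1.72 (-2.04 to -1.45). Of the other stromal markers, Col1a2 stood at -0.56 (-0.67 to -0.45), and 3 of the 7 listed had no count. Col1a1, with 26 Dox counts and 15 untreated counts, stood at -0.10 (-1.08 to 0.91). Pdgfra, with 5 Dox counts and 1 untreated count, stood at 0.76 (-1.74 to 6.98). The part of cells with these markers in the Notch3 level was not tested. The sort took GFP-mid cells with Dox and GFP-high cells without. How many recipient cells without the transgene passed each gate was not tested.

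Notch2 (Entrez Gene 18129, chromosome 3 from 98013538 to 98150367, plus strand, 34 exons) stood slightly higher with Dox. It had 1382 Dox counts and 582 untreated counts, or 97.1 CPM (92.1 to 102) with Dox and 76.6 CPM (70.5 to 83.1) without. The log2 ratio was 0.34 (0.20 to 0.49), a 1.27-fold higher level, which put it at rank 1448 from the highest ratio. An interval wholly above 0 was found for 26.9% of the 10113 genes and a ratio of at least 1.5-fold higher for 6.28%, and Notch2 did not reach 1.5-fold. Marginal zone B cells and myeloid cells of the spleen make Notch2. The B cell marker sum was under 1 CPM in both libraries. Of the 11 myeloid markers, Ly6g, S100a8, Elane and Mpo had no count in either library, and 3 reached 5 CPM. Itgam stood at 14.7 CPM with Dox and 8.42 CPM without, and Cd68 at 6.19 CPM with Dox and 3.29 CPM without. Lyz2 went the other way, at 1.69 CPM with Dox and 7.24 CPM without. The part of B cells and myeloid cells in the Notch2 level was not tested. How many such cells of the recipient passed the GFP-mid and GFP-high gates was not tested either.

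Notch4 (Entrez Gene 18132, chromosome 17 from 34564286 to 34588543, plus strand, 30 exons) was close to the detection limit, and it was the single receptor that did not reach 5 CPM in either library. It had 9 Dox counts and 6 untreated counts, or 0.633 CPM (0.289 to 1.20) with Dox and 0.789 CPM (0.290 to 1.72) without. The log2 ratio was -0.25 with an interval of -1.97 to 1.45, so neither a direction nor its absence was detectable at this depth. A count of 0 would allow up to 0.211 CPM in the Dox library and 0.395 CPM in the untreated library.

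**Figure D1:**
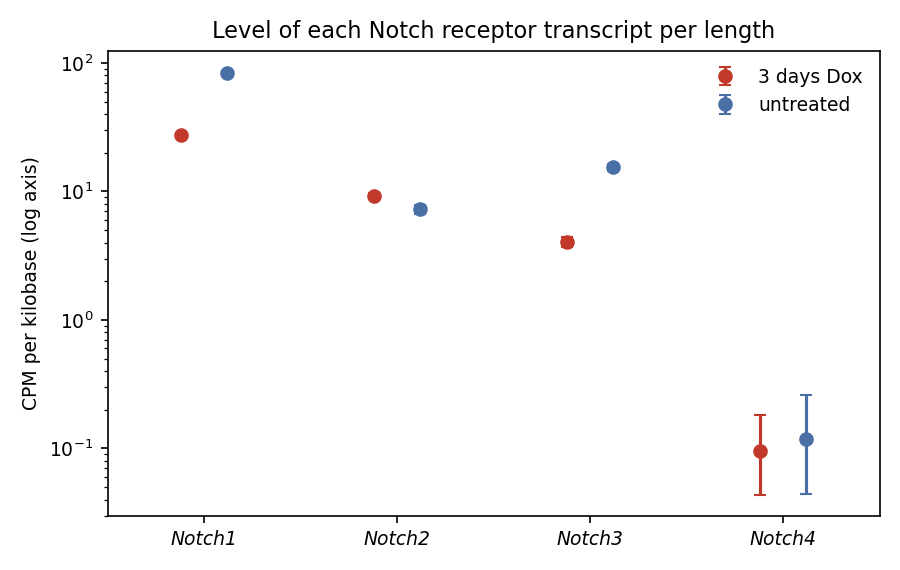
Level of each receptor as CPM per kilobase of listed exonic length on a log axis, with the Dox library in red on the left and the untreated library in blue on the right of each pair, and exact 95% counting intervals as bars (1 library per group, no replicate error). Notch1 and Notch3 stood lower with Dox, Notch2 at 9.25 with Dox and 7.29 without, and Notch4 had overlapping intervals.

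The order of the receptors by level per length differed between the libraries. With Dox the order was Notch1 at 27.5 CPM per kilobase, Notch2 at 9.25, Notch3 at 4.03 and Notch4 at 0.0958. Without Dox it was Notch1 at 83.1 CPM per kilobase, Notch3 at 15.5, Notch2 at 7.29 and Notch4 at 0.120. No neighbours in either order had overlapping counting intervals. Per length, Notch2 stood at 2.30 times the Notch3 level with Dox and at 0.471 times without. Notch1 exceeded Notch2 2.97-fold with Dox and 11.4-fold without, and it exceeded Notch3 6.83-fold with Dox and 5.37-fold without.

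The makeup of the receptor pool needs no scaling between the libraries. It is drawn from the same counts as the levels, so it repeats the exchange of places and is no separate evidence of it. Each share also depends on the other receptors: the Notch2 share holds the lower Notch1 counts as well as its own 1.27-fold higher level. Notch1 held 66.8% (65.5 to 68.0) of the 5557 receptor counts with Dox and 79.8% (78.8 to 80.7) of the 7518 receptor counts without. Notch2 held 24.9% (23.7 to 26.0) with Dox and 7.74% (7.15 to 8.37) without. Notch3 held 8.19% (7.48 to 8.94) with Dox and 12.4% (11.7 to 13.2) without. Notch4 held 0.162% (0.0741 to 0.307) with Dox and 0.0798% (0.0293 to 0.174) without. The intervals, by the Clopper-Pearson method, were apart for the first 3 receptors and overlapped for Notch4.

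**Figure D2:**
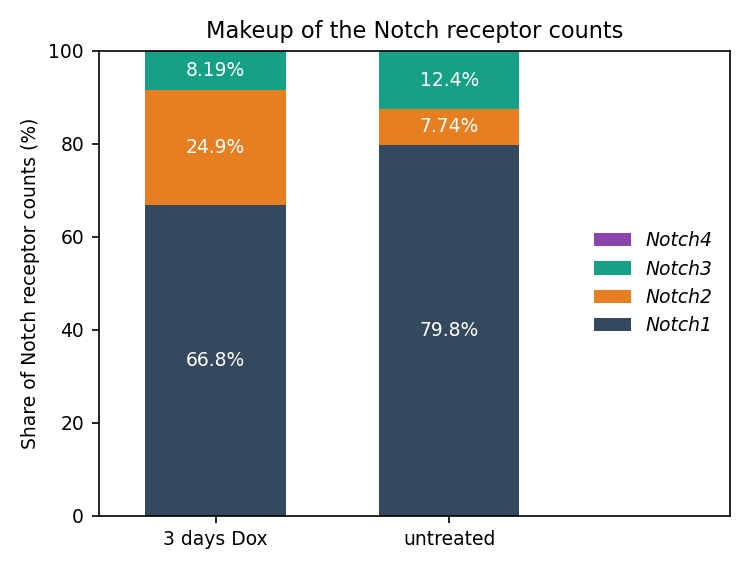
Share of the summed Notch receptor counts held by each receptor, in percent, for the Dox library on the left and the untreated library on the right. Notch2 takes 24.9% of the Dox counts and 7.74% of the untreated counts, and Notch4 is too small to see. Each share also depends on the counts of the other receptors.

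Summed over the 4 genes, receptor transcripts stood at 391 CPM with Dox and 989 CPM without, a log2 ratio of -1.34 (-1.39 to -1.29) or 2.53-fold lower. Notch1 made up 88.2% of that difference in CPM, and 85.4% of the difference per length. Both are shares of a net difference, because Notch2 stood higher with Dox. Without Notch1 the other 3 receptors summed to 130 CPM with Dox and 200 CPM without, a log2 ratio of -0.63 (-0.72 to -0.53). That sum mixes opposite directions and describes no single gene: Dox minus untreated was 20.6 CPM for Notch2 and -90.9 CPM for Notch3.

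The receptors' ratios were compared with each other through the odds ratio of their counts, which also needs no scaling, for all 6 pairs. Notch1 minus Notch2 gave a difference of log2 ratios of -1.94 (-2.09 to -1.79), and Notch2 minus Notch3 gave 2.28 (2.07 to 2.50), so Notch2 stood apart from both by 3.84-fold and 4.87-fold. Notch1 minus Notch3 gave 0.35 (0.17 to 0.52), so the Notch3 ratio was the lower by 1.27-fold beyond counting error. The pairs with Notch4 gave -1.28 (-3.05 to 0.38) for Notch1 minus Notch4, 0.66 (-1.12 to 2.32) for Notch2 minus Notch4 and -1.62 (-3.40 to 0.04) for Notch3 minus Notch4. All 3 of those intervals include 0.

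**Figure D3:**
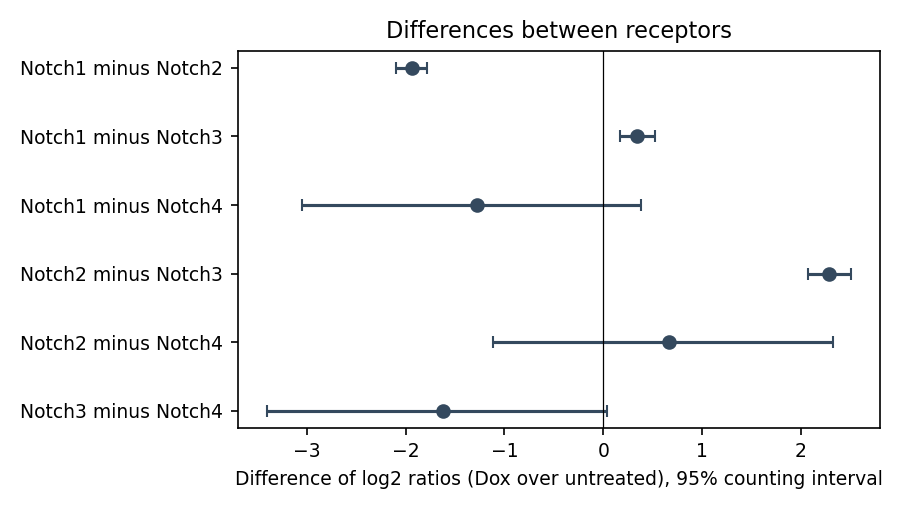
Difference of the log2 ratios (Dox over untreated) for each of the 6 pairs of receptors, first gene minus second, with the exact conditional 95% counting interval as a bar. The pairs among Notch1, Notch2 and Notch3 lie clear of 0, from -1.94 to 2.28, and the intervals of the pairs with Notch4 cross it.

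**Figure D4:**
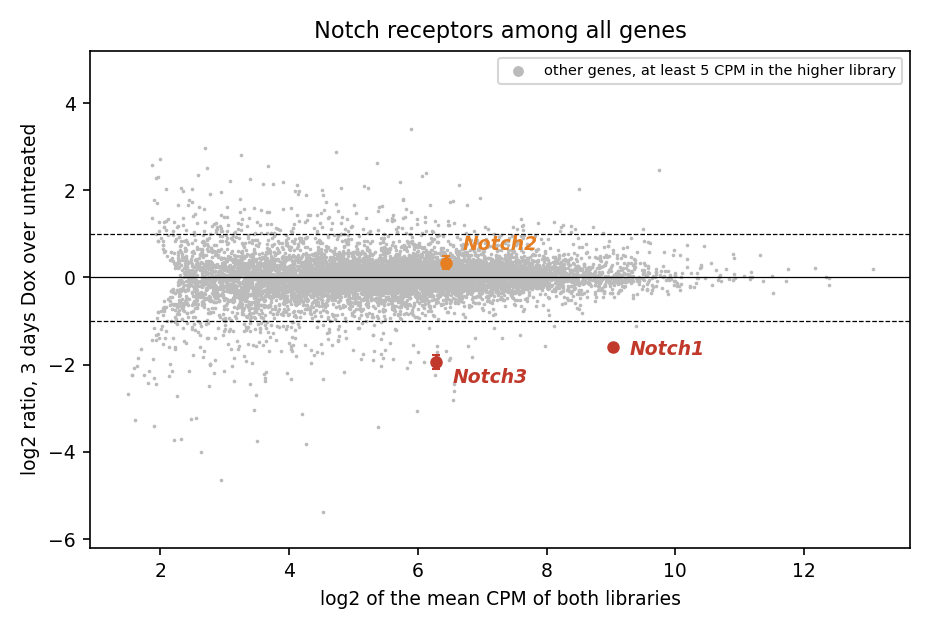
Log2 ratio of Dox over untreated against the log2 of the mean CPM of both libraries, for the 10113 genes that reached 5 CPM in either library in grey and for Notch1, Notch2 and Notch3 in colour with their counting intervals. Dashed lines mark 2-fold, and Notch1 and Notch3 lie below the lower line while Notch2 lies inside the main cloud.

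The receptors are long transcripts whose counts could mix with those of related or overlapping genes, so their sequences were compared. No stretch of 50 bases in the longest coding transcript of any receptor occurred in a transcript of another receptor. For Notch1, 13.7% of such stretches also occurred in transcripts of the gene models 0610009E02Rik and Gm13568, for Notch2 3.86% in Gm42820, for Notch3 5.01% in Gm17276 and Gm30232, and for Notch4 0%. Of these 5 gene models 1 has a row in the table, 0610009E02Rik, with 3 Dox counts and 4 untreated counts against 3711 Dox counts and 5996 untreated counts of Notch1. How the counting treated strand and shared reads was not stated, and its effect on the Notch1 level was not tested.

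Along the chromosome, the nearest genes that reached 5 CPM in either library were compared with each receptor. Sec16a, a gene of vesicle export from the endoplasmic reticulum 11609 bases from Notch1, had a log2 ratio of 0.15 (0.04 to 0.25), and Egfl7, a secreted protein gene of blood vessels on its other side, had -0.22 (-0.51 to 0.07). Beside Notch3, the ribosome biogenesis gene Rrp1b stood at -0.59 (-0.72 to -0.47). None of these 3 neighbours reached 2-fold, and most genes did not either. Among all genes 2.24% passed that size downward and 2.21% upward, so nothing is read from the 3 neighbours. Beside Notch2, Sec22b, a membrane fusion gene, had a ratio of 0.32 (0.17 to 0.48). Notch4 lies in the major histocompatibility complex region, where Gpsm3, a regulator of G protein signalling 1263 bases away, had 96.0 CPM with Dox and 75.1 CPM without. H2-Eb1, a class II chain gene 247612 bases away, had 2.95 CPM with Dox and 9.34 CPM without, a log2 ratio of -1.60 (-2.25 to -1.09). It passed the minimum only through the untreated library, which favours a low ratio, so nothing is read from it.

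The genes most like each abundant receptor were taken as the 3 nearest in the plane of log2 CPM with and without Dox, a likeness over 2 libraries that is a description of levels. For Notch1 no gene was close: the nearest, Mtf2, a Polycomb-associated protein gene, lay 0.721 log2 units away at 274 CPM with Dox and 479 CPM without. Dntt, which encodes the terminal transferase of early lymphocytes, lay 0.726 away and Paics, a purine synthesis enzyme, 0.756 away. For Notch3 the nearest were Rdh10, a retinol dehydrogenase, at a distance of 0.137, Elfn2 at 0.205 and Slfn9, a Schlafen family gene, at 0.255. For Notch2 Eif1b at 0.0108, Dmtf1 at 0.0308 and Gpsm3 at 0.0322 lay closest, in a far denser part of the plane.

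The receptors were set beside 66 other genes of the pathway, of which 47 reached 5 CPM in either library and 19 did not. Of the 47, Il2ra and Heyl stood past 2-fold in the lower direction, as did 2.24% of all genes. In the higher direction 0 did, against 2.21% of all genes. Il2ra and Heyl passed the minimum only through the untreated library, so nothing is read from that count. At least 1.5-fold lower were 6, with Il2ra and Heyl among them, and at least 1.5-fold higher was 1. Over all genes the shares were 6.18% and 6.28%, and 40 of the 47 lay within 1.5-fold. Their median log2 ratio was 0.09, against 0.01 over the 10113 genes. These lists were drawn up with earlier results of the data known.

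No ligand gene reached 5 CPM. Of the 8 listed, 5 had no count in either library, and the best measured was Jag2, with 37 Dox counts and 32 untreated counts and a log2 ratio of -0.66 (-1.42 to 0.04). No gene past the minimum that matures or cuts the receptors reached 1.5-fold. Most genes did not either: over all genes 6.28% passed that size upward and 6.18% downward, so nothing is read from that count. The 6 maturation genes had a median log2 ratio of -0.04, with Poglut1, which adds glucose to the extracellular repeats of the receptors, furthest from 0 at -0.23 (-0.42 to -0.04). Adam10 and Adam17, the proteases of the first activating cut, stood at 0.20 (0.11 to 0.30) and 0.38 (0.25 to 0.51). Of the 5 gamma-secretase genes past the minimum, Psenen lay furthest from 0 at 0.44 (-0.14 to 1.07). It passed the minimum only through the Dox library, at 6.12 CPM with Dox and 4.47 CPM without. Psen2, which encodes a catalytic subunit, stood at 0.35 (-0.10 to 0.82).

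Of the 4 measured genes of ligand uptake, Mib1, a ubiquitin ligase that acts on ligands, was 1.61-fold lower at -0.69 (-0.83 to -0.56), and the other 3 lay within 1.5-fold. Of the 7 measured genes of receptor turnover, 6 had a ratio above 0, where the median of all genes was 0.01. None of the 7 reached 1.5-fold, as held for most genes. Itch, a ubiquitin ligase that can mark Notch, stood highest of them at 0.51 (0.39 to 0.63). Rbpj, the DNA-binding partner of every receptor, stood at 35.9 CPM with Dox and 46.1 CPM without, a log2 ratio of -0.36 (-0.56 to -0.16). Of the coactivator genes, Maml3 was 1.66-fold lower at -0.73 (-0.97 to -0.51) and Ep300 stood at 0.45 (0.36 to 0.55). The 5 corepressor genes lay within 1.5-fold, as did most genes.

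Target genes of the receptors stood on both sides of 0. Of 11 past the minimum, Il2ra and Heyl passed it only through the untreated library, which pulls the counts that follow toward lower values. With both counted, 7 had a ratio under 0 and 4 above 0, with a median of -0.13. The median over all genes was 0.01, so genes in general also lie on both sides of 0, and nothing is read from that split. Those at least 2-fold lower were Il2ra, the interleukin 2 receptor alpha chain, with 13 Dox counts, 345 untreated counts and a ratio of -5.38 (-6.56 to -4.84), and Heyl, a repressor gene, with 32 Dox counts and 47 untreated counts. The Heyl interval of -2.15 to -0.78 includes changes under 2-fold. Beside the receptor ratios of -1.60 and -1.94, the repressor gene Hes1 stood at -0.67 (-0.85 to -0.50) and Myc, a growth regulator, at -0.72 (-0.79 to -0.65). In the other direction Trib2, a pseudokinase gene, stood at 0.67 (0.58 to 0.75).

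**Figure D5:**
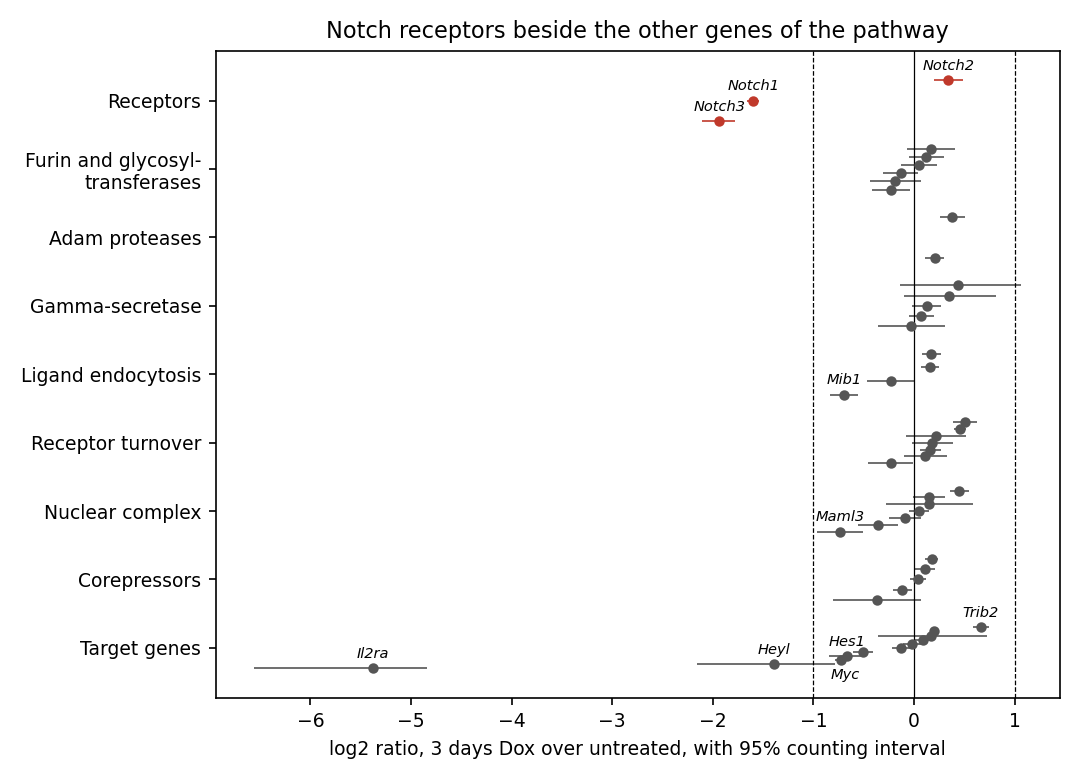
Log2 ratio of Dox over untreated for the receptors in red and the other pathway genes by role in grey, for genes that reached 5 CPM in either library, with 95% counting intervals as bars, dashed lines at 2-fold, and names for the receptors and for genes past 1.5-fold. Notch1 and Notch3 lie left of the 2-fold line, where Il2ra and Heyl are the only other genes plotted.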

How the data were processed

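RNA was sequenced from sorted leukaemia cells, with 1 library per group. The authors' deposited tables hold counts, whole numbers of reads per gene without normalization, and a gene length. Per the submitters' processing notes, CASAVA 1.8.2 and featureCounts were used with mm10. The aligner, annotation, strand setting and treatment of shared reads are not given in those notes or in the files, nor is it stated how the 3 mice per group and 2 sequencing runs named in the design text were combined. The series table and the file of each library differed in 0 values.

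Symbols came from RefSeq (GRCm38.p6) for 25275 genes and from GENCODE M21 for 18. All 4 receptors and all 66 pathway genes matched. Counts were scaled with edgeR 4.0.16 (TMM, R 4.3.3). Log2 ratios used a prior count of 2. Their intervals are exact (Clopper-Pearson on the Dox share of a gene's counts, without the prior count). Levels have exact Poisson intervals, and differences between receptors exact conditional odds-ratio intervals (scipy 1.17.1). Precision of a ratio is limited by the smaller of its 2 counts. PCR reads are not independent molecules, so intervals and the limit of 3 counts cover counting error only. Interval and size rules were run on simulated counts that held counting error only, so that run cannot show how they hold under spread between mice or libraries. Alternatives were DESeq2 1.42.0 size factors, total counts, upper quartile factors, prior counts of 0.5, 5 and none, and CPM minimums of 1, 20 and none.

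Members and lists were chosen with earlier results of these data known. Genes were named by rule: the receptors, Ikzf1, members of each role list from the 4 with the largest absolute ratio, the 3 nearest genes in level and the nearest neighbours on the chromosome. Jag2, Trib2 and the cell type markers were named after their values were seen. A few genes met by these rules are not reported here. Python 3.11.15, numpy 2.4.6, pandas 2.3.3 and matplotlib 3.10.9 were used.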

Additional observations from a re-analysis of the deposited data

How the results depend on the processing

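The log2 ratios of the receptors stayed within their counting intervals under all 6 alternatives of scaling and prior count, from -1.64 to -1.59 for Notch1, 0.29 to 0.34 for Notch2, -1.98 to -1.93 for Notch3 and -0.32 to -0.19 for Notch4. The scalings moved the median of all genes from 0.01 to at most -0.04.

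Per exonic length, Notch1 held 78.4% of the untreated receptor pool, Notch2 22.6% with Dox and 6.87% without, and Notch3 9.85% with Dox and 14.6% without. By construction, levels per kilobase are smaller than CPM: 27.5 with Dox and 83.1 without for Notch1, 9.25 and 7.29 for Notch2, 4.03 and 15.5 for Notch3, and 0.0958 and 0.120 for Notch4.

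Counts of genes past 2-fold depended on the minimum level. They were 407 higher and 440 lower at 1 CPM, 129 and 104 at 20 CPM, and 784 and 744 with no minimum. With the interval bound in place of the ratio past 2-fold, a stricter rule, they were 115 and 141. The Notch1 rank from the lowest ratio was 184 at 1 CPM and 49 at 20 CPM, and the Notch3 rank 114 and 24. In the pathway lists, 1 gene stood at least 2-fold lower at 20 CPM. With no minimum, 1 was past 2-fold in the higher direction, and past 1.5-fold were 2 higher and 10 lower.

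No paired analysis was possible because each group has 1 library. Depth limits Notch4, whose 9 Dox counts and 6 untreated counts give no direction. With 1 library per group, differences between mice, sorts and library preparations cannot be told apart from the effect of Dox.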
